A study of Mus musculus with 12 samples.

Results

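The TNF superfamily is a set of related cytokines, the ligands, and of the receptors that they bind. Its chromatin was described across 6 blood cell types through 200 accessible peaks of the 84243 peaks in a master peak-list. A peak was taken as a member when the gene name given to it, that of the nearest transcription start site (TSS), was a numbered Tnfsf or Tnfrsf gene or one of Tnf, Lta, Ltb, Ltbr, Cd27, Cd40, Cd70, Fas, Fasl or Eda2r. The 82 ligand peaks belonged to 16 genes and the 118 receptor peaks to 24 genes. Tnfrsf26 was the single one of the 25 receptor genes with no peak of its name. In all, 40 of 41 genes had a peak, against 77.3% of 21000 protein-coding genes.

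The study used ATAC-seq, in which a transposase cuts and tags open DNA, on 12 samples with 2 replicates of each of 6 cell types. All came from wild-type C57BL/6 mice between 8 and 12 weeks of age, with no treatment. By the sample labels, hematopoietic stem cells (HSCs), megakaryocyte progenitors (MkPs), erythroid progenitors (EPs), granulocyte/macrophages (GMs) and B cells were sorted from bone marrow, and T cells from thymus. Each population was defined by a surface-marker gate, so it can hold a range of stages: MkPs were CD41+ progenitors, EPs were CD71+ with or without Ter119, GMs were positive for both Gr1 and Mac1, B cells were CD43- B220+ and T cells were CD25- CD3+. The list combines the peaks of the 6 types, filtered by the authors to a non-overlapping set. Peaks within 500 bp of a TSS number 13171 in it, fewer than the paper counts in each of the 6 types alone. A gene with no such peak in the list can therefore have had one called in a cell type. The list names no cell type or replicate for a peak, and holds no read count and a score of 0 throughout. A peak therefore says that DNA was open in 1 or more populations, without saying which, depth is unknown, no value has a replicate error, and the labelled cell types could not be checked against their markers. With no value per sample to test, the shares below are descriptions with 95% Wilson intervals, which cover counting error only. The intervals treat peaks of the same gene as independent.

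Most TNF ligands are made as membrane proteins that act as trimers, and some are shed. Receptors with a death domain, such as Fas and Tnfrsf1a, can recruit adaptors that start apoptosis, whereas most other receptors bind TRAF adaptors and switch on NF-κB. In blood the family controls lymphocyte survival, co-stimulation, the death of activated cells, and the formation of lymphoid organs and osteoclasts. NF-κB proteins bind a short DNA element, the kappaB site, and many genes of the family are themselves known NF-κB targets.

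Tnf, which encodes the inflammatory cytokine TNF, lies between Ltb and Lta on chromosome 17 (mm10, the build of all positions here), and these 3 ligand genes together span 11.1 kb. Ltb and Lta encode the lymphotoxins, which direct lymph node development. Tnf (35199367 to 35202007, minus strand) had 1 peak, at 35200377 to 35200875. Its centre lay 1381 bp downstream of the TSS, in an intron of the gene. No peak of any gene was centred closer to the Tnf start than that. Ltb (35194507 to 35196305, plus strand) had 1 peak, centred 140 bp upstream of its TSS. Lta (35203165 to 35205578, minus strand) had 4 peaks, 1 at the TSS (35205002 to 35205500, centre 100 bp downstream) and 3 upstream, centred at 4986, 13389 and 14528 bp. Both lymphotoxin genes thus had a promoter peak, defined as a centre within 500 bp of a TSS, and Tnf did not. A further 2 peaks in the locus carried the names of small RNA genes, Mir6973a (35195558 to 35196056, inside Ltb) and Mir6974 (35204433 to 35204931, inside Lta), so the naming rule left them out.

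The sequences of this locus are shown because they carry that contrast. The capitals mark strings of 11 known factor families, searched on both strands. The string TGTGGT stands for RUNX factors. For GATA factors the search used AGATAA instead. The string for the ETS family was GGAAGT. A longer form of it, GAGGAAGT, stands for PU.1 and contains the ETS string. NFAT was searched as TGGAAA. The first of 2 E-boxes was CAGCTG. The second E-box was searched separately, with the letters CAGGTG. AP-1 was searched as TGANTCA, and kappaB, IRF and CTCF by their longer consensus. The upstream 250 bases of the Tnf promoter come from the RefSeq table for the same assembly, and the peaks were read from the mm10 genome, up to 300 bases around the centre, with UTRs cut off.
Tnf promoter, no peak (chr17:35202008-35202257, minus strand): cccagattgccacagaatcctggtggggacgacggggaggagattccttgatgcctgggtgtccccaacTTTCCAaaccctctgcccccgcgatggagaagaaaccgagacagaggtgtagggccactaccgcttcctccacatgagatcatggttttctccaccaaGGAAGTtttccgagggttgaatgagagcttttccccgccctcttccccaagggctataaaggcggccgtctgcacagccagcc
Tnf intronic peak (chr17:35200476-35200775, minus strand): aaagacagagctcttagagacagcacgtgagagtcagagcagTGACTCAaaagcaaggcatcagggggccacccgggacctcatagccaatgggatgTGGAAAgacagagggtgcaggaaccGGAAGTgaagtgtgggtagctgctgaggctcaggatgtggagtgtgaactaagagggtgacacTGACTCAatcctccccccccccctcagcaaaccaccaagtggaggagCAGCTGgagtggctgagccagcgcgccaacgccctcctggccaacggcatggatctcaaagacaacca
Ltb promoter peak (chr17:35194207-35194506, plus strand): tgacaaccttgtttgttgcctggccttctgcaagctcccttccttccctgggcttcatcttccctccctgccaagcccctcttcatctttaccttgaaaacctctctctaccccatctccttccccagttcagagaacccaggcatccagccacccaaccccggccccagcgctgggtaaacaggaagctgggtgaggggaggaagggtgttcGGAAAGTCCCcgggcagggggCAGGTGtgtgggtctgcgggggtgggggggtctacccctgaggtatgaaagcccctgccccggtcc
Lta upstream peak A (chr17:35210237-35210436, minus strand): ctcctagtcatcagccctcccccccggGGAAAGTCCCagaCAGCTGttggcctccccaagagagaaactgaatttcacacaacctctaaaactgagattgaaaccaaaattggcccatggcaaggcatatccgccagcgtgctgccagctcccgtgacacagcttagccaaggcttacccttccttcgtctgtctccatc
Lta upstream peak B (chr17:35218640-35218839, minus strand): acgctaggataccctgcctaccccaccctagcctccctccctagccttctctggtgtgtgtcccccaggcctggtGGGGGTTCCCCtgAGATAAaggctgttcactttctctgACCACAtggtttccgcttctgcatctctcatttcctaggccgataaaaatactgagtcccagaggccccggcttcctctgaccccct
The kappaB string stood in the Ltb promoter peak and in 3 of the 4 Lta peaks. In the Ltb peak printed above it reads GGAAAGTCCC, 58 bp from the peak centre, and a further match lay in the transcribed part that is not shown. Lta upstream peak A holds the same 10 letters. Lta upstream peak B holds overlapping matches 19 and 20 bp from the centre. The Tnf intronic peak held no kappaB match, but it held the AP-1 string at 2 places, as well as ETS, NFAT and E-box strings. This peak is called intronic by its centre. The printed stretch runs on from the intron into a coding exon, and the CAGCTG E-box stands in that coding part. The Tnf promoter stretch held 1 ETS and 1 NFAT string and no kappaB match to these letters. A match is a string in the reference and not a measured binding site, and no match says only that these letters are not in the window.

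**Figure D1:**
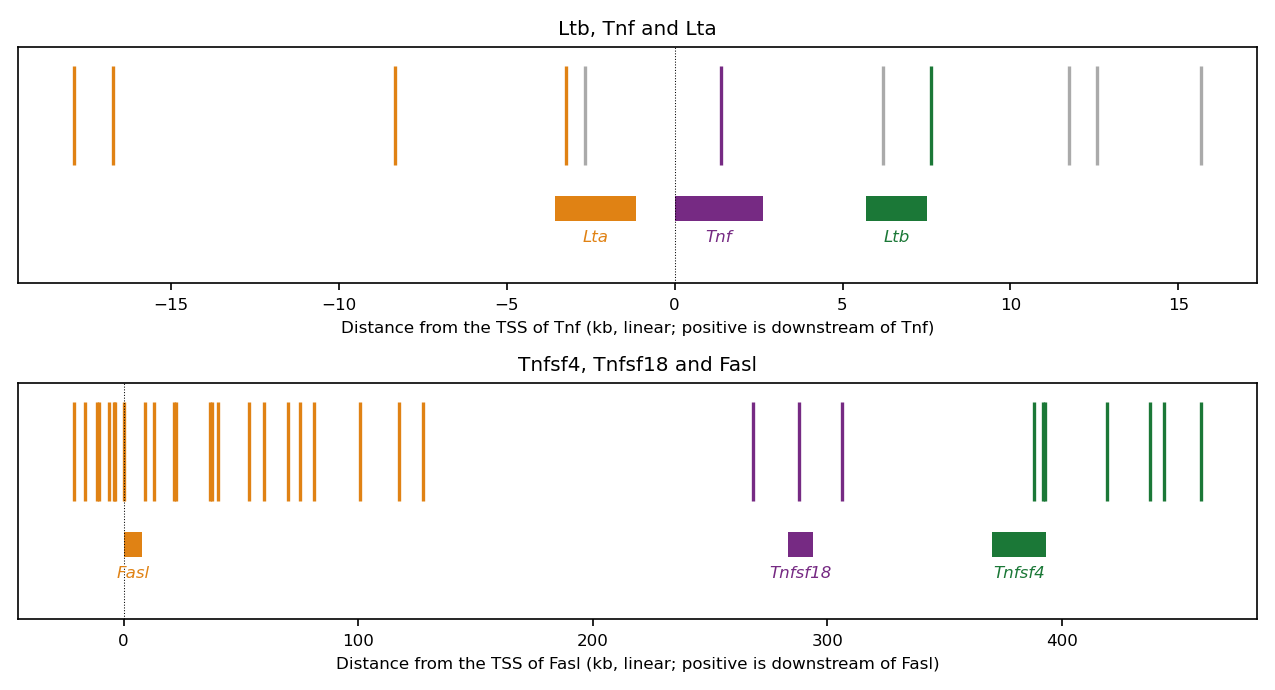
Positions of peaks around Ltb, Tnf and Lta (upper) and around Tnfsf4, Tnfsf18 and Fasl (lower), as distance in kb from the TSS of Tnf or Fasl. Each tall line is 1 peak, coloured by the gene that the list names for it (grey for other genes), and each bar is a gene; no line stands at the Tnf start, while Fasl has 23 lines, 22 of them outside protein-coding genes.

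Fasl, the ligand of the death receptor Fas, had the most peaks of the family. Its 23 peaks lay over 149 kb of chromosome 1, around a gene of 7805 bp (161780691 to 161788495, minus strand). The promoter peak was centred 55 bp downstream of the TSS. There were 7 peaks upstream, the farthest at 20973 bp, and 15 beyond the 3′ end of the gene, the farthest at 127643 bp. None lay within the gene apart from the promoter peak. Among protein-coding genes, 219 (1.04%) had at least as many peaks. The median gap between neighbouring Fasl peaks was 5068.5 bp and the largest 19438 bp. Beyond the last of them came an interval of 140 kb with no peak at all, and then the peaks of Tnfsf18 and Tnfsf4. All 33 peaks within the 480 kb held by these 3 ligand genes carried one of their names. That stretch was drawn from the first to the last peak so named. With names given by the nearest TSS, the count says only that no peak in it lay nearer to another gene's TSS. Tnfsf4 (OX40 ligand, a T cell co-stimulator) had 7, with 1 at 473 bp from its TSS. Tnfsf18 (GITR ligand) had 3 and no promoter peak, the nearest being 6010 bp downstream in an intron.

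The Fasl peak at chr1:161670865-161671363, 117381 bp downstream of the TSS, held the strings of 9 of the 11 factor families searched, more than any other family peak. The sequence is given because it places them within 300 bases; the other family peaks held at most 6, a Tnfrsf21 peak centred 16576 bp upstream of its TSS. The PU.1 string counts here for ETS too, and the IRF match overlaps the NFAT string.
Fasl downstream peak (chr1:161670964-161671263, minus strand): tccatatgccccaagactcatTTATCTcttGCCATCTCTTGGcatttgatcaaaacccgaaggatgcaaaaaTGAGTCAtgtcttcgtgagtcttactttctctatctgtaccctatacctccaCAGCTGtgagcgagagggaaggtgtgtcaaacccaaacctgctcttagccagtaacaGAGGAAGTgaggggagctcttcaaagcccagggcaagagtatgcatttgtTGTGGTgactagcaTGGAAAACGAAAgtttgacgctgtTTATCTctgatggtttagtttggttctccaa
Of the 23 Fasl peaks, 2 held the kappaB string, at 13138 and 59749 bp downstream. The promoter peak held an ETS string and the CAGGTG E-box.

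After Fasl, 4 ligands had between 7 and 12 peaks. Tnfsf8 (CD30 ligand) had 12 peaks, 1 at its promoter, 4 within the gene and 7 outside protein-coding genes, out to 87005 bp upstream and 43584 bp downstream. Tnfsf10 (TRAIL, which triggers apoptosis) had 9, of which 1 was at the promoter, 3 within the gene and 5 upstream as far as 58477 bp. Tnfsf11 (RANKL, the osteoclast differentiation factor) had 8, 5 of them outside protein-coding genes as far as 75425 bp upstream. Its promoter peak, centred 145 bp downstream of the TSS, was one of only 2 CpG-rich promoter peaks among the ligands. Tnfsf4, described above, had 7, and Lta had 4. The remaining 10 ligands had 1 to 3 peaks each. Ltb, Tnf, Tnfsf12 (TWEAK) and Tnfsf13 (APRIL) had 1, and Tnfsf13b (BAFF, a B cell survival factor) had 3. Its promoter peak was centred 16 bp upstream of the TSS and its other peaks stood side by side at 24213 and 24725 bp downstream, inside the gene.

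Among the receptors, Tnfrsf1b had the most peaks. It encodes TNFR2, a TNF receptor without a death domain. The gene (chr4, 145212368 to 145246870, minus strand) had 12 peaks, with 1 centred 12 bp downstream of the TSS, 7 within its own introns, 2 within the neighbouring Tnfrsf8 gene and 2 between the genes. Tnfrsf8 (CD30) had 11, and the pair held 23 peaks on chromosome 4, where the genes span 103 kb. Tnfrsf21 (DR6, a death-domain receptor) had 11 peaks, 7 within its own gene, out to 60673 bp downstream. Tnfrsf13b (TACI, which binds BAFF and APRIL) had 10. Tnfrsf11a (RANK) had 7, including 3 at 100473, 101835 and 102960 bp downstream of its TSS, which were the farthest receptor peaks. Tnfrsf19 (TROY) also had 7, and by the distances of the list was the only member with 2 promoter peaks, 1 at each of its RefSeq starts (233 and 306 bp downstream). By RefSeq starts Tnfrsf13b has 2 as well, at 53 and 21 bp. Tnfrsf1a (TNFR1, the death-domain TNF receptor) had 6 peaks within 16.4 kb. Tnfrsf13c (the BAFF receptor) had 6 around a gene of 2639 bp, 5 of which were not at the promoter and none of these within the gene. The other receptors had 5 peaks or fewer, and Ltbr (lymphotoxin beta receptor) and Tnfrsf12a (TWEAK receptor) had 1 each, at the promoter.

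**Figure D2:**
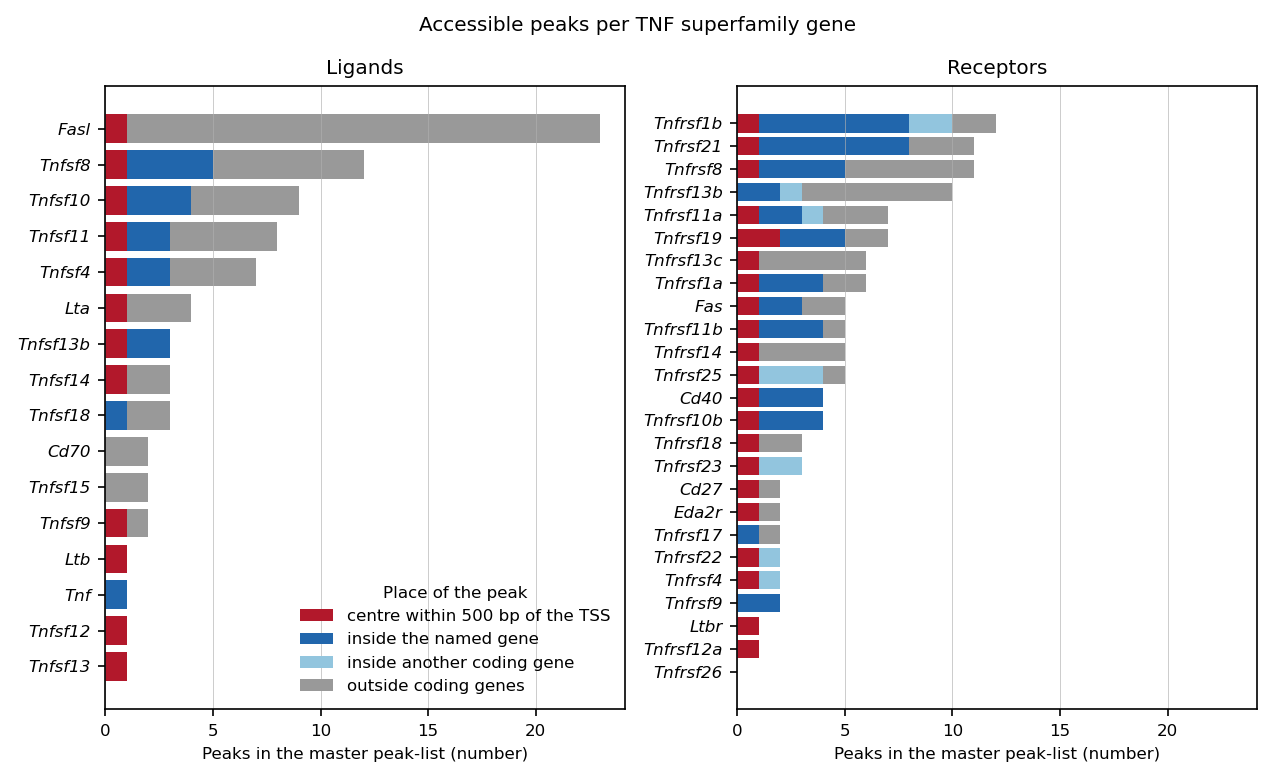
Number of peaks named for each ligand gene (left) and receptor gene (right), with colours for the place of the peak. Fasl (23) has the longest bar, nearly all grey (outside protein-coding genes), while the longest receptor bar, Tnfrsf1b (12), is mostly blue (inside the gene), and Tnfrsf26 has no bar.

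The numbers of peaks per gene overlapped between the 2 classes. The median was 3 for ligands and 4 for receptors, against 2 for all protein-coding genes, and the means were 5.12, 4.72 and 3.43. The middle of the ligand genes ranged from 1.75 to 7.25 peaks (quartiles) and that of the receptors from 2 to 6, so the ranges overlapped. With peaks linked by a basal region plus extension, which can give a peak to several genes, the medians rose to 8 for ligands and 7 for receptors and their order turned. Since a gene in a wide gap collects more peaks, the count was also divided by the span between the neighbouring TSSs. The median density was 3.90 peaks per 100 kb for ligands and 3.45 for receptors, and 1.92 for all protein-coding genes. The densest were Tnfrsf13c (18.8 per 100 kb), with 6 peaks in 31.9 kb, and Tnfrsf12a (18.2), with 1 peak in 5.49 kb. Eda2r, a receptor for an ectodysplasin form, had 0.186, from 2 peaks in 1076 kb. A high density can thus rest on 1 peak in a short span, as also for Tnfsf12 (9.48) and Tnf (9.22). Neighbouring peaks of 1 gene were centred within 1000 bp of each other in 16 of 160 cases (10%), against 6.89% of all neighbouring peaks. The last share spans gene borders and the first does not, so they are not on the same footing.

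A promoter peak was counted for 34 of the 200 family peaks (17%, interval 12.4 to 22.8), against 15.6% of the master peak-list. The share was 14.6% (8.57 to 23.9) for ligands, 12 of 82, and 18.6% (12.6 to 26.6) for receptors, 22 of 118, and these intervals overlap. By gene, 12 of 16 ligands (75%) and 21 of 25 receptors (84%) had one, against 54.8% of protein-coding genes. The ligands without one were Tnf, Cd70 (ligand of CD27), Tnfsf15 (TL1A) and Tnfsf18. The nearest peaks of the last 3 were 17268, 38351 and 6010 bp from the TSS. The receptors without one were Tnfrsf9 (4-1BB), Tnfrsf13b, Tnfrsf17 (BCMA, the plasma cell receptor) and Tnfrsf26.

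For 2 of these receptors the absence rested on the annotation. The list gives Tnfrsf13b a peak at 61126453 to 61126951 on chromosome 11, with a distance of -14133 bp, but a curated RefSeq start of that gene, 61126755, lies 53 bp from its centre. Its second curated start, 61142484, lies 21 bp from the centre of the peak to which the list gives a distance of 1628 bp. A peak on chromosome 7 (143627971 to 143628469) was named for the neighbouring E230032D23Rik, and its centre is 375 bp from the RefSeq start of Tnfrsf26, 143627845. Counting a peak of any name within 500 bp of a curated RefSeq start, a count added after these values were seen, 23 of 25 receptors (92%) and the same 12 of 16 ligands had a promoter peak, against 60.4% of protein-coding genes. Tnfrsf9 and Tnfrsf17 still had none, with the nearest peaks at 5711 and 3761 bp. Tnf, Cd70, Tnfsf15 and Tnfsf18 also had none.

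Ligands and receptors differed in where their other peaks lay. Of 70 non-promoter ligand peaks, 14 were intronic (20%, interval 12.3 to 30.8) and 53 intergenic (75.7%, 64.5 to 84.2). Of 96 non-promoter receptor peaks, 49 were intronic (51.0%, 41.2 to 60.8) and 37 intergenic (38.5%, 29.4 to 48.5). The intervals of the classes do not overlap for either place, and the master peak-list had 48.0% intronic and 44.6% intergenic. Many of these peaks share a gene, so the intervals are no test of a difference between ligand and receptor genes. Fasl contributed 22 of the ligand peaks. Without it 29.2% of ligand peaks were intronic (18.2 to 43.2) and 64.6% intergenic (50.4 to 76.6). The intronic interval then overlapped that of the receptors, while the intergenic interval did not. Gene size moves with this result, as the median length was 8832 bp for ligand genes, 16940 bp for receptor genes and 17741.5 bp for all coding genes, and its part in the difference was not tested. Within another protein-coding gene there were 11 of the 96 receptor peaks and 0 of 70 ligand peaks. The last count allows a share of up to 4.29%, taken as 3 counts of the total. The share over the whole list was not counted, so these numbers cannot be read against it. The Tnfsf9 peak centred 5229 bp upstream was annotated to an intron of Gm11110, a non-coding gene, and is among the 14 intronic ligand peaks. Among the receptor peaks, 3 of the 5 Tnfrsf25 peaks (DR3, the TL1A receptor) stood in introns of Plekhg5. First introns held 17 of the 49 intronic receptor peaks (34.7%), close to the 34.3% of the whole list. They held 6 of the 14 intronic ligand peaks (42.9%), a share that rests on few peaks.

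Ligand peaks also lay farther out. At the median, a peak outside promoters stood 23465.5 bp from the TSS for ligands, 14056 bp for receptors and 22261 bp for the list. With only the peaks inside a gene or within 10 kb of it linked to that gene, the order turned, at 7640 bp for ligands and 9664.5 bp for receptors. That rule caps the distance by gene length, and ligand genes are shorter at the median, so it cannot decide the order. Within 10 kb lay 22.9% (14.6 to 34.0) of ligand and 39.6% (30.4 to 49.6) of receptor peaks, against 28.9% of the list. Beyond 100 kb there were 6 peaks in all (3.61%, 1.67 to 7.66), namely 3 of Fasl and 3 of Tnfrsf11a, against 13.0% of the list. Peaks were almost evenly placed on both sides of the TSS, with 47.6% upstream in the family and 41.7% in the list. The share in annotated repeats, 15%, was near the 15.1% of all peaks.

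**Figure D3:**
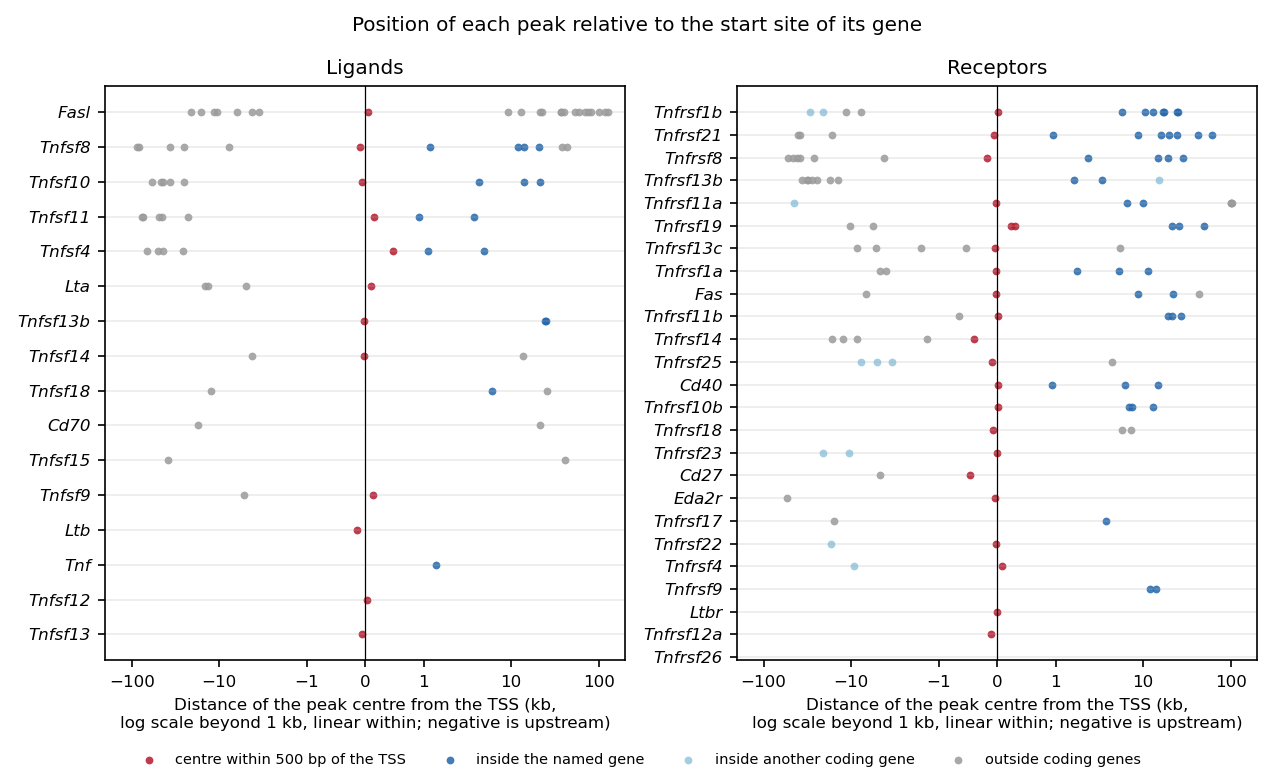
Signed distance of each peak centre from the TSS of its gene in kb (linear within 1 kb and logarithmic beyond), with 1 line per ligand (left) or receptor (right) gene and 1 point per peak. Red points near 0 mark promoter peaks and are missing for Tnf, Cd70, Tnfsf15, Tnfsf18, Tnfrsf9, Tnfrsf13b, Tnfrsf17 and Tnfrsf26.

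Promoter peaks of the family were poor in CpG, the dinucleotide that is dense at the promoters of widely expressed genes. The median ratio of observed to expected CpG was 0.315 in the 12 ligand promoter peaks, 0.516 in the 22 of the receptors and 0.778 in all 13171 promoter peaks of the list. GC content had medians of 56.5%, 56.6% and 63.3%. With at least 50% GC and a ratio of at least 0.6 as CpG-rich, 2 ligand peaks (16.7%, interval 4.70 to 44.8), 7 receptor peaks (31.8%, 16.4 to 52.7) and 74.8% of the list qualified. The ligand peaks were those of Tnfsf9 (4-1BB ligand; ratio 0.897) and Tnfsf11 (0.722). The receptor peaks were those of Tnfrsf11a (0.894), Tnfrsf21 (0.891), Tnfrsf12a (0.794), Tnfrsf10b (the TRAIL receptor; 0.750), Tnfrsf22 (0.685), Ltbr (0.655) and 1 of the 2 of Tnfrsf19 (0.648). At the low end stood Tnfrsf18 (GITR; 0.187), Ltb (0.193), Tnfsf10 (0.201), Cd27 (0.207), Tnfsf13 (0.228) and Fasl (0.238). Non-promoter peaks had similar GC content throughout, with medians of 46.3% for ligands, 49.9% for receptors and 47.7% for the list.

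**Figure D4:**
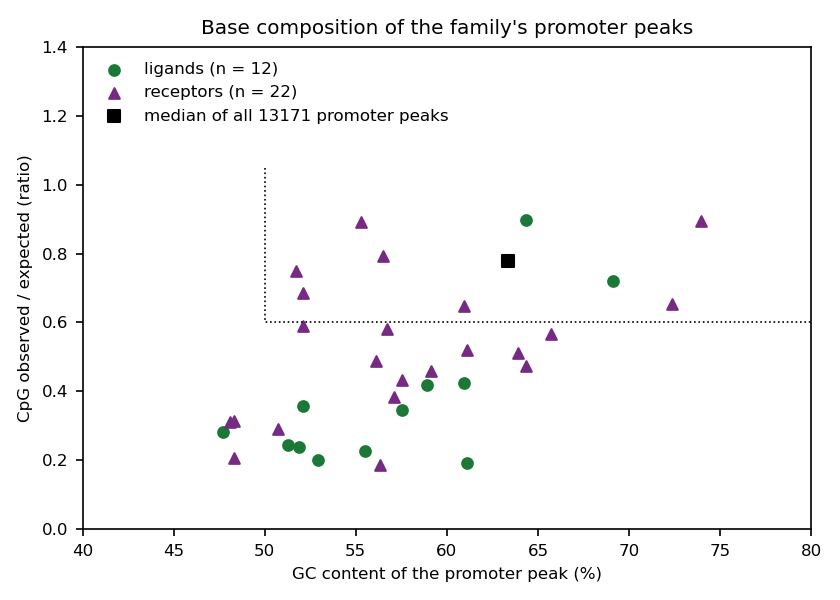
GC content in percent (horizontal) against the ratio of observed to expected CpG (vertical) of the 12 ligand and 22 receptor promoter peaks, 1 point per peak, with the median of all promoter peaks as a square. Dotted lines mark 50% GC and a ratio of 0.6; 9 family peaks lie inside that corner, as the square does.

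Promoter peaks of 2 receptors are printed for the strings that they hold: Fas, which carries the AP-1 string, and Tnfrsf1b, which carries the CAGGTG E-box and an IRF match. The upstream peak of Tnfrsf8 is added because its kappaB string, GGGACTTCCC, stands within 1 bp of the peak centre. The choice of the peaks with a kappaB string, of Tnf and of Fasl was made after their values were seen.
Fas promoter peak (chr19:34290398-34290658, plus strand): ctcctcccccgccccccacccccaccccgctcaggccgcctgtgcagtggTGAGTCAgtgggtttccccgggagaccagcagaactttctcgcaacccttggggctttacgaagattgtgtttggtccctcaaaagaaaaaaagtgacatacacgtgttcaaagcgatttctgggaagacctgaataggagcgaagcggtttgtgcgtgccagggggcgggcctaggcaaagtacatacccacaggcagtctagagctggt
Tnfrsf1b promoter peak (chr4:145246871-145247107, minus strand): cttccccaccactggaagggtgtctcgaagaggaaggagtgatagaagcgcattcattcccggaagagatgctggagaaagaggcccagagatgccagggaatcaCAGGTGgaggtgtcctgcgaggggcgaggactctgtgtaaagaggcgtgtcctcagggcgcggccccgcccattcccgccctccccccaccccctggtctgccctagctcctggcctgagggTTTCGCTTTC
Tnfrsf8 upstream peak (chr4:145319319-145319518, minus strand): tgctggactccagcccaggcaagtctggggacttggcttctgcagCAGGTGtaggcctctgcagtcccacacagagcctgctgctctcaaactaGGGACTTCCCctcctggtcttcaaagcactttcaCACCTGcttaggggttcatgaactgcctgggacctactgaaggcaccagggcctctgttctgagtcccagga
Across the family, the kappaB string stood in 15 of 166 non-promoter peaks (9.04%, interval 5.55 to 14.4) against 6.38% of the list, and in 6 of 34 promoter peaks (17.6%, 8.35 to 33.5) against 9.23%. The first interval includes the value of the list, and the lower bound of the second lies below it. The promoter peaks with the string were those of Lta, Ltb, Cd40 (the B cell co-stimulatory receptor), Tnfrsf8, Tnfrsf11b (osteoprotegerin, the decoy for RANKL) and Tnfrsf25. Ligands and receptors were alike in this share, at 10% and 8.33% of non-promoter peaks, and the intervals (4.93 to 19.2 and 4.28 to 15.6) are wide.

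The AP-1 string stood in 6 of 34 family promoter peaks (17.6%, 8.35 to 33.5) and in 6.80% of all promoter peaks, so that the interval lay above the list. These 6 were the peaks of Fas, Tnfsf13, Tnfsf13b, Tnfsf14 (LIGHT, a ligand of the lymphotoxin beta receptor), Tnfrsf8 and Tnfrsf23 (a decoy receptor for TRAIL). The promoter peaks compared differ in composition, as 26.5% of those of the family and 74.8% of those of the list were CpG-rich. The part of composition in the AP-1 shares was not tested. In non-promoter peaks the AP-1 share was 21.7% (16.1 to 28.6) against 16.9%. It was 27.1% (18.1 to 38.5) for ligands and 17.7% (11.4 to 26.5) for receptors, and these intervals overlap. The CTCF string was found in 12 of 166 non-promoter family peaks (7.23%, 4.18 to 12.2) against 13.6% of the list, and this interval lay below the list. The CAGCTG E-box was also less frequent there, at 22.3% (16.6 to 29.2) against 30.4%. NFAT stood in 48.6% (37.2 to 60.0) of ligand and 34.4% (25.6 to 44.3) of receptor non-promoter peaks, with 37.1% in the list. PU.1 was found in none of the 34 promoter peaks (interval 0 to 10.2%), and in 4.79% of all promoter peaks. RUNX (44.6% against 42.5%), GATA (25.3% against 26.9%), ETS (46.4% against 43.9%), the CAGGTG E-box (30.7% against 32.9%) and IRF (9.64% against 7.90%) were close to the list in non-promoter peaks. With 11 strings compared in 2 kinds of peak, a few intervals that miss the list are to be read as a description.

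**Figure D5:**
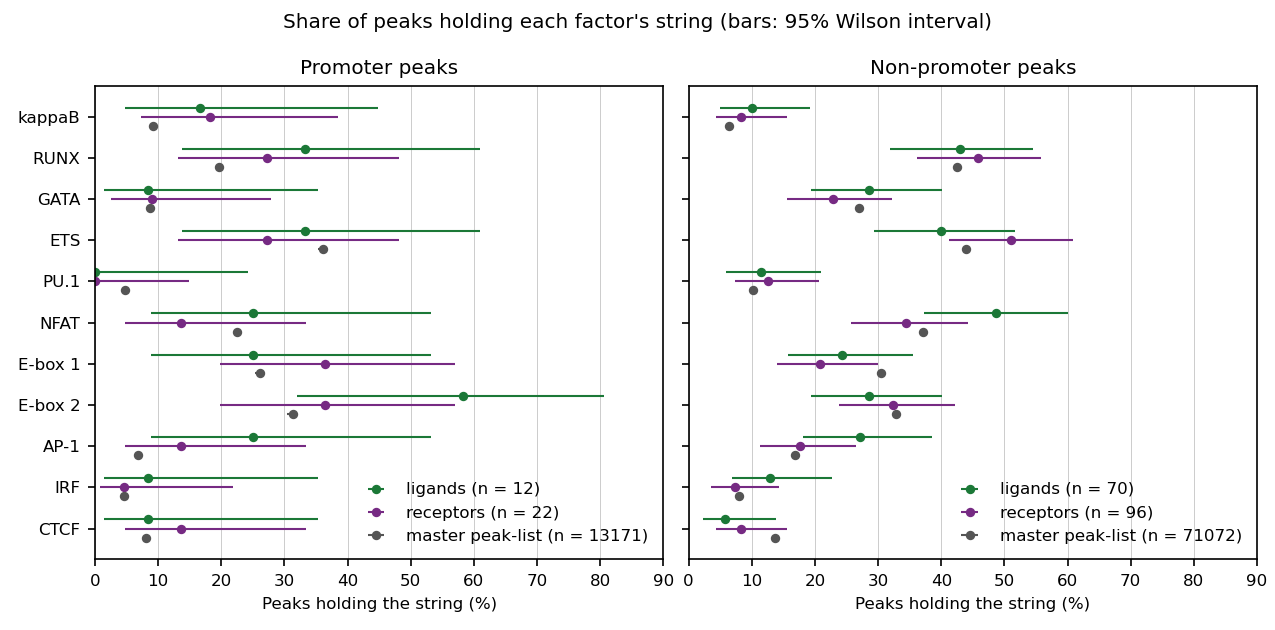
Percent of promoter peaks (left) and non-promoter peaks (right) holding each string, for ligands, receptors and the master peak-list; points are shares and bars 95% Wilson intervals, E-box 1 is CAGCTG and E-box 2 is CAGGTG. The ligand and receptor bars overlap for every string, and the CTCF points of both classes lie below the list among non-promoter peaks.

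Grouped by role, the 5 listed receptors with a death domain (Fas, Tnfrsf1a, Tnfrsf10b, Tnfrsf21 and Tnfrsf25) all had a promoter peak and 31 peaks in all. The 3 decoys, which bind ligand without passing on a signal (Tnfrsf11b, Tnfrsf22 and Tnfrsf23), all had one too, with 10 peaks. Of the 3 receptors for BAFF and APRIL, 1 had a promoter peak by the gene names of the list, that of Tnfrsf13c. They held 18 peaks, 10 of them of Tnfrsf13b. With curated RefSeq starts Tnfrsf13b counts too, which makes 2 of the 3. The other 14 receptors had 59 peaks, and 12 of them had a promoter peak. The share over all protein-coding genes was 54.8%, and these groups are too small to be read against it. Tnfrsf22 and Tnfrsf23 are close copies of each other, so reads of shared stretches would have been dropped as multimapping and their counts are uncertain.

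Ligands were set beside their receptors in 21 known pairs, which are not all the known ones. Among the members left out were Lta and the decoys Tnfrsf22 and Tnfrsf23, each with a promoter peak. The counts below therefore hold for the chosen pairs alone. A promoter peak was present on both sides in 11 pairs, on the ligand side alone in 5 and on the receptor side alone in 5. With curated RefSeq starts, by which Tnfrsf13b has a promoter peak, these counts became 13, 3 and 5, a tally added after the values were seen. By the names of the list, the pair members lacking one were Tnf beside Tnfrsf1a and Tnfrsf1b, Cd70 beside Cd27, Tnfsf15 beside Tnfrsf25 and Tnfsf18 beside Tnfrsf18 on the ligand side. On the receptor side they were Tnfrsf9 beside Tnfsf9, and Tnfrsf13b and Tnfrsf17, each beside Tnfsf13 and Tnfsf13b. The ligand had more peaks in 8 pairs, the receptor in 8, and they were equal in 5. The widest gaps were those of Fasl and Fas, with 23 against 5, and of Tnf and Tnfrsf1b, with 1 against 12. Tnfsf8 and Tnfrsf8 had nearly equal numbers, 12 and 11.

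Several members lie side by side in the genome. On chromosome 17, Tnfsf9, Cd70 and Tnfsf14 span 88.9 kb and held 7 peaks, with promoter peaks at Tnfsf9 and Tnfsf14 and none at Cd70 between them. Tnfsf13 and Tnfsf12 on chromosome 11 span 13.5 kb and had 1 promoter peak each. Tnfsf15 and Tnfsf8 on chromosome 4 span 137 kb, with 2 and 12 peaks. The receptors Cd27, Ltbr and Tnfrsf1a span 130 kb of chromosome 6 and each had a promoter peak, with 9 peaks in all. Tnfrsf4 (OX40) and Tnfrsf18 on chromosome 4 span 15.3 kb and held 5. Tnfrsf26, Tnfrsf22 and Tnfrsf23 span 78.8 kb of chromosome 7 and held 5. In both ligand clusters of 3 genes, the gene in the middle (Tnf and Cd70) was the one without a promoter peak.

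The proteins that relay TNF receptor signals were read from a list of 37 genes. A peak was named for 35 of them and a promoter peak for 32 (86.5%), with 268 peaks in all and a median of 5. Among all protein-coding genes 77.3% had a peak and 54.8% a promoter peak, and the median was 2. The most were found at Map3k7, the TAK1 kinase, with 30, then at Nfkb1, an NF-κB subunit, with 26, and Tank, a TRAF-binding adaptor, with 23. Tradd, the adaptor of TNFR1, and Sharpin, a subunit of the linear ubiquitin ligase, had none of their name. Peaks of other names near the RefSeq starts were not looked up for these 37 genes, so an absence here can rest on the naming. Ripk1, a kinase recruited to TNFR1, had 1 peak, 6968 bp from the TSS. Relb and Nfkbia had peaks centred 593 and 582 bp away, just outside the 500 bp limit.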

How the data were processed

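ATAC-seq peaks of 12 samples, 2 replicates of each of 6 cell types, were used as 1 pooled master peak-list. The authors mapped reads to mm10 with the ENCODE ATAC-seq pipeline, without multimapping reads, took the reproducible (IDR) peaks of each cell type, concatenated them, kept non-overlapping peaks of 499 bp with chromVAR and annotated them with HOMER (4.10.2 per the submitters' processing notes). The positions and distances deposited by the authors are in bp. The deposited score is 0 in every peak and was used for nothing. The list has 0 columns per sample, so no comparison between cell types was made; depth and precision per sample are unknown.

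Members were chosen by the gene name of the list. Promoter peaks had a centre within 500 bp of a TSS. Place in genes came from RefSeq (GRCm38, the assembly of mm10), sequence from its genome, and base composition and strings from all 499 bp. The string search was tested on simulated sequence. RefSeq promoters matched 32 of 41 members, under the 80% needed, so their composition was not used. Every member could be named; the 6 ligands and 6 receptors with most peaks, members with no promoter peak and neighbouring genes were described in full. Of the signalling list, the 3 genes with most peaks and those with none were named, and Ripk1, Relb and Nfkbia were added after their values were seen. Members and lists were chosen with earlier results of these data known. Alternatives changed the promoter width, the rule that gives a peak its gene, the members and the bases searched. Python 3.11.15, numpy 2.4.6, pandas 2.3.3 and matplotlib 3.10.9 were used.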

Additional observations from a re-analysis of the deposited data

How the results depend on the processing

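Each value kept its sign, but 2 orders between the classes turned. Linking peaks to genes by a basal region plus extension, which can give 1 peak to several genes, raised the family to 320 peaks and the receptors to 198, the median per gene to 8 for ligands and 7 for receptors, the opposite order of the 3 and 4 found with the names of the list, and the median non-promoter distance to 45028 bp for ligands and 24733 bp for receptors, and lowered the promoter share to 7.74% for ligands and 11.1% for receptors. Linking only peaks inside a gene or within 10 kb left 47 ligand peaks at a median of 7640 bp, below the 9664.5 bp of receptors. This rule caps the distance by gene length, with medians of 8832 bp for ligand genes and 16940 bp for receptor genes. It therefore cannot decide the order of the distances. Linking by the nearest RefSeq TSS, without that cap, gave 21608 bp for ligands and 13020.5 bp for receptors. The other linking rules, promoter widths and member lists kept counts and medians within 1.5 times, and shares within their intervals. Of 44 string shares, 18 moved outside their interval, 17 of them with the central 200 bp alone, as fewer bases were searched; without Fasl the ligand NFAT share rose to 60.4%. No paired analysis was possible because the list has no column per sample. The list bounds all of this: a peak absent from it was either not called or removed when the authors filtered the called peaks. The depth is not known.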

Other observations

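Members of the wider superfamily that the naming rule does not cover were counted in the same way. Cd40lg, the CD40 ligand of helper T cells, had 5 peaks and none at its promoter, the nearest lying 10009 bp from the TSS, whereas Cd40 had 4 with 1 at the promoter. Eda, the ectodysplasin that shapes skin appendages, had 2 peaks, and its receptor Edar had 7. Ngfr, the low-affinity nerve growth factor receptor, had 4 and Relt, an orphan receptor, had 11. Each of these 4 genes had 1 promoter peak. With all 5 added, the family held 229 peaks.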
